A study of Homo sapiens with 12 samples.

Results

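Z138 cells that received only the solvent dimethyl sulfoxide (DMSO) were compared between 24 h and 8 h of exposure. Z138 is an established human mantle cell lymphoma line, labelled as a lymphoblast line of wild-type genotype and grown in RPMI-1640 with fetal bovine serum. Libraries were chosen by their labels alone: 2 libraries of DMSO at 8 h and 3 of DMSO at 24 h, 5 of the 11 distinct libraries in the deposited table. The study's other arm received 0.5 µM AU-15330, a degrader of the chromatin remodelling ATPases SMARCA4 and SMARCA2 and of PBRM1, for the same 8 h or 24 h (3 libraries each), and it served here for the shared spread and a side by side reading. The labels listed 12 samples, 3 per group, but 2 of the DMSO samples at 8 h pointed to a single column, which stands in the table under a repeated heading with identical values, so it counted as 1 library.

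All 8 h libraries carried 1 batch label and all 24 h libraries another, so time under DMSO and labelled batch cannot be told apart in any value below. The samples used here hold neither cells before treatment nor cells without DMSO. All libraries came from 1 cell line, and nothing in the labels says that replicates were separate cultures, so the p-values speak only of how far these samples scatter, and that scatter may be technical. In bulk RNA, fewer cells of a type and less RNA per cell cannot be told apart either. Estimated totals were 58784514 to 67575976 counts in the 5 DMSO libraries. Values below are normalised counts, read counts scaled to a common library size, of which 59.4 correspond to 1 CPM, the usual unit scaled to library size. Changes are differences of log2(normalised count + 60), 24 h minus 8 h, with their standard errors (n = 2 and n = 3 libraries), and understate the change of genes at low level. The standard errors rest on a spread estimated over all 11 libraries, AU-15330 included, and so are not the scatter of the DMSO replicates alone.

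B cell lines in culture live on serum factors, nutrients and their own secreted cues. Immediate-early genes such as the EGR and FOS families are switched on within minutes by the extracellular signal-regulated kinase cascade and by calcium, and their products include phosphatases and Sprouty proteins that shut the cascade down again. The NF-kappaB factors drive chemokines and their own inhibitors after antigen receptor or CD40 signalling. The cytosolic heat shock response, run by the factor HSF1, raises chaperones when unfolded protein accumulates in the cytosol, whereas the unfolded protein response raises a separate set of chaperones in the endoplasmic reticulum (ER), the compartment in which antibody is folded.

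Of 12722 gene entries with enough signal to test, 834 were higher at 24 h (6.56%) and 453 were lower (3.56%), together 1287 or 10.1% (limma, Benjamini-Hochberg adjusted p under 0.05). The changes were mostly small. The median absolute change was 0.34 on the log2 scale among the called genes and 0.11 over all tested entries, against a median SD between libraries of 0.0686 at 8 h and 0.0720 at 24 h. Larger changes leaned upward: 49 called entries rose at least 2-fold (0.385% of those tested) and 9 fell at least 2-fold (0.0707%). The DMSO groups did not overlap for 42.4% of all tested entries, 23% with the 24 h libraries above and 19.4% with them below. Genes named below as largest rises or falls were chosen with lack of overlap as a condition, so it adds no support for them. The split between rises and falls moved with the scaling, to 701 higher and 630 lower after quantile normalisation, while the median change over all tested entries was 0.01 on the scale of log2(normalised count + 60). It also leaned on each 8 h library: without the first replicate at 8 h 484 rose and 204 fell, and without the second 462 rose and 197 fell. Leaving out 24 h libraries gave 578 and 273 calls (without the first), 594 and 283 (without the second) and 617 and 274 (without the third).

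**Figure D1:**
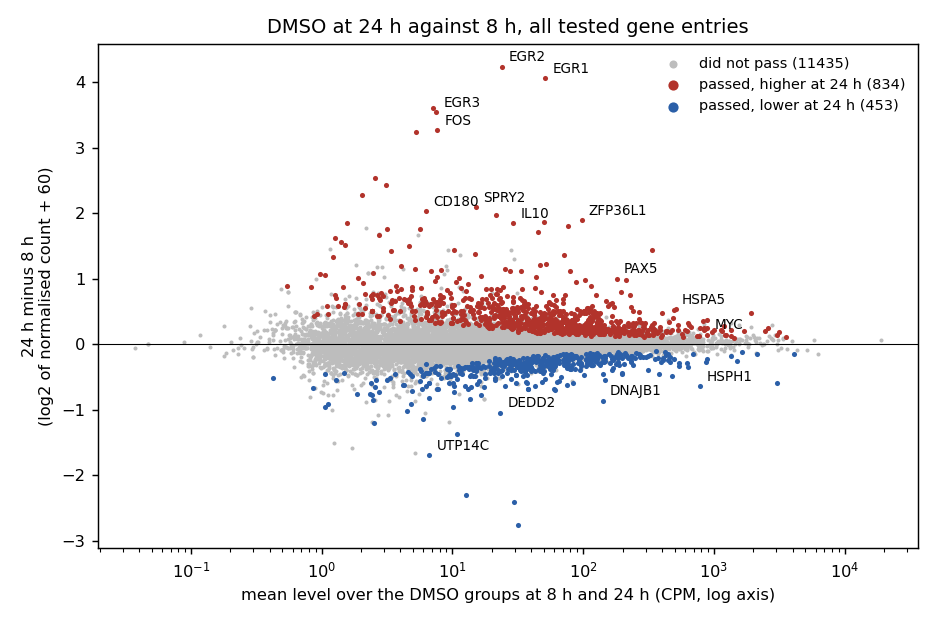
Change from 8 h to 24 h in DMSO (vertical axis, log2 of normalised count + 60) against the mean level of the DMSO groups (horizontal log axis, CPM) for 12722 tested entries, each point 1 entry; red marks the 834 that rose, blue the 453 that fell. EGR2 and EGR1 lie farthest above 0, and the 3 lowest blue points are entries of HSPA1B.

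The label was checked against marker genes. The 8 B cell markers (among them CD79A, CD79B, MS4A1, PAX5, CD22, CD74 and HLA-DRA) were all tested and summed to 5069 to 5768 CPM, and CCND1, the cyclin that defines mantle cell lymphoma, stood at 154273 and 156452 normalised counts at 8 h and at 167447, 164355 and 167602 at 24 h. Markers of T or NK cells summed to 13.7 to 14.8 CPM (7 of 8 analysed). CD3G made up most of that sum and CD3D and CD5 were near 0, but TRAC, the T cell receptor alpha constant gene, went from 2.65 and 0.973 normalised counts at 8 h to 32.5, 34.2 and 23.7 at 24 h, and CD3E stood at 52.2 and 47.7 and then at 75.8, 59.2 and 65.1. The myeloid marker ITGAM went from 3.58 and 5.64 to 60.6, 21.9 and 21.3. Myeloid markers summed to 1.93 to 2.44 CPM (4 of 8), erythroid to 0.249 to 0.777 (5 of 8), megakaryocyte to 0.930 to 1.18 (3 of 6) and epithelial to 1.30 to 2.31 (3 of 6). Fibroblast markers (4 of 6) were the only markers of another cell type whose summed ranges at 8 h and 24 h did not overlap, from 655 to 1003 normalised counts at 8 h to 1235 to 1306 at 24 h. That sum was almost wholly COL1A1, whose own change of 0.59 ± 0.29 did not pass (limma adjusted p = 0.0779) but did with a replicate block or without the first replicate at 8 h, and DCN and COL1A2 were near 0. The part of these markers in the results was not tested. Replication-dependent histone genes, whose messages lack a poly(A) tail and so report on the way libraries were primed, summed to 51.3 to 69.3 CPM with overlapping ranges at both times.

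Immediate-early genes and their feedback inhibitors were among the largest rises, together with the chemokine genes described below. Of 24 tested genes of this list, 13 rose and none fell, with a median change of 0.46, beside 6.56% of all entries called higher and a median of 0.01 over all entries. EGR2, a zinc finger factor induced by growth factor and antigen receptor signalling, read 77.6 and 99.1 normalised counts at 8 h and 2866, 3094 and 2254 at 24 h, a change of 4.23 ± 0.18 (limma adjusted p = 5.88e-06). Every 24 h library was more than 20 times above both 8 h libraries. EGR1 (GRCh38 chromosome 5, 138465490 to 138469315), a family member with the same targets, went from 359 and 216 to 4129, 7616 and 5618, a change of 4.06 ± 0.29 (adjusted p = 4.26e-05). EGR3, the third of the family, went from 18.5 and 19.8 to 937, 1009 and 663 (3.53 ± 0.27, adjusted p = 1.34e-05). FOS, which forms the AP-1 factor with JUN proteins, went from 47.6 and 24.0 to 644, 1108 and 867 (3.26 ± 0.23, adjusted p = 2.79e-05). For all of these the groups lay far apart, although the 24 h libraries of EGR1 and FOS spread more widely among themselves than those of EGR2.

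The EGR1 promoter is printed because serum response elements, the sites of serum response factor, are the textbook route by which this gene answers the kinase cascade, and because EGR1 was among the largest rises. The 120 bases before its RefSeq start (GRCh38.p14, chr5:138465359-138465478, plus strand) hold 2 CArG boxes, the core of such an element, marked in capitals and beginning 105 and 83 bases before the start.
EGR1: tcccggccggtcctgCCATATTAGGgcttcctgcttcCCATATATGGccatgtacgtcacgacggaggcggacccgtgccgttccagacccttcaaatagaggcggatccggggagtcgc
Over the 250 bases before the start, 1.14% of 27305 RefSeq promoters hold a CArG box on either strand, as do 2 of the 18 list members with a promoter in the table, EGR1 and SRF, the gene for serum response factor itself. EGR1 rose, and the change of SRF (0.00 on the log2 scale) did not pass. A match of letters is a description and not a measured binding site, and the motif was chosen with the results in view.

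Genes that restrain the same cascade rose beside it. SPRY2, a Sprouty inhibitor of receptor tyrosine kinase signalling, went from 340 and 269 normalised counts at 8 h to 1657, 1522 and 1287 at 24 h, a change of 2.09 ± 0.13 (limma adjusted p = 5.36e-06). The groups did not overlap, and its relative SPRY1 rose by 0.81 ± 0.077 on the same scale. DUSP5 and DUSP2, phosphatases that inactivate MAP kinases in the nucleus, rose by 1.76 ± 0.23 and 1.71 ± 0.14. Against these, DUSP1 (0.21 ± 0.11), ATF3 (0.05 ± 0.22), FOSB (0.49 ± 0.21) and NR4A2 (0.33 ± 0.14) did not pass.

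IER2, a nuclear immediate-early protein, rose from 2235 and 2490 to 5921, 6452 and 6132 (1.36 ± 0.11, limma adjusted p = 2.05e-05), with all 24 h libraries above both 8 h libraries. NR4A1, an orphan nuclear receptor and marker of antigen receptor signalling, went from 573 and 401 to 1977, 2318 and 1908, a change of 1.97 ± 0.19 (adjusted p = 0.000327). ZFP36L1, an RNA-binding protein that speeds decay of AU-rich messages, went from 2406 and 2410 to 9154, 9749 and 8502 (1.90 ± 0.076, adjusted p = 1.65e-07). The 8 h libraries of ZFP36L1 agreed more closely than those of IER2 or NR4A1. NR4A3 rose by 1.06 ± 0.19 from very low counts, 17.1 and 21.4 at 8 h and 137, 114 and 70.1 at 24 h. Its adjusted p of 0.0319 did not survive the loss of single libraries and reached 0.144 without the first replicate at 8 h.

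**Figure D2:**
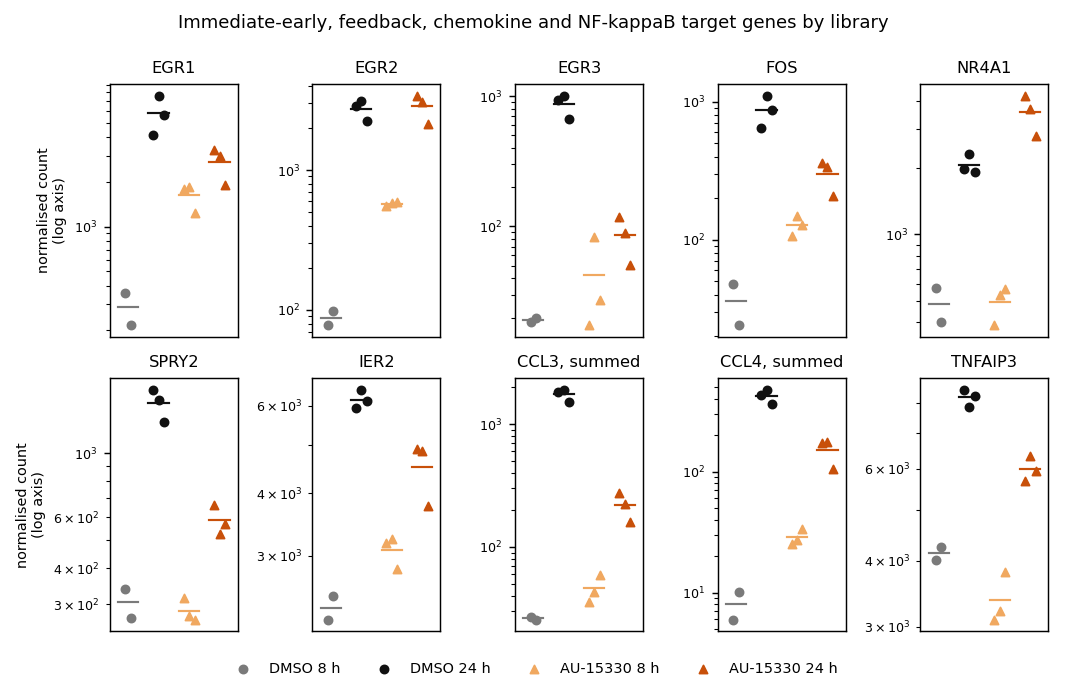
Normalised counts (log axis) of 10 immediate-early, feedback, chemokine and NF-kappaB target genes in every library, circles for DMSO and triangles for AU-15330, with a line at each group mean; CCL3 and CCL4 are sums over the entries of the symbol. For all 10 genes the 3 DMSO libraries at 24 h lie above the 2 at 8 h. For EGR1, EGR3, FOS, SPRY2, IER2, CCL3 and CCL4 the AU-15330 libraries at 24 h lie below those of DMSO at 24 h.

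NF-kappaB target genes rose in smaller steps, with the chemokines as the exception. Of 20 tested list members 11 rose and none fell, with a median of 0.22 on the log2 scale, beside the 6.56% of all entries. Without the second replicate at 8 h 7 members passed. The chemokine genes CCL3 and CCL4, which attract T cells and monocytes, have several near-identical copies and several entries in the table, so counting may have split their reads, and the sum over a symbol's entries is given. CCL3 read 27.0 and 25.6 normalised counts at 8 h and 1829, 1907 and 1510 at 24 h, a change of 4.38 ± 0.17 (limma adjusted p = 3.54e-08 with entries summed). CCL4 read 5.96 and 10.1 at 8 h and 429, 474 and 361 at 24 h (2.82 ± 0.16, adjusted p = 1.21e-06). The copy CCL3L1 went from 15.2 and 16.8 to 347, 424 and 289 (2.43 ± 0.15, adjusted p = 7.78e-06), and how reads divide among these copies is uncertain. Chemokine counts at 8 h were close to the lowest levels tested, while each 24 h library was far above them.

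TNFAIP3 (chromosome 6, 137867188 to 137883312), the ubiquitin-editing enzyme A20 that ends NF-kappaB signalling, went from 4010 and 4256 normalised counts to 8477, 7862 and 8266. The change was 0.98 ± 0.081 (limma adjusted p = 1.8e-05), close to a doubling, and the groups did not overlap. The inhibitors NFKBIE and NFKBIA rose by 0.68 ± 0.11 and 0.23 ± 0.057. Among the factors themselves, RELB rose by 0.21 ± 0.042 and NFKB1 by 0.19 ± 0.052, while REL (0.05), NFKB2 (0.06) and RELA (-0.03) did not pass. CD83, a surface marker of activated B cells, rose from 1207 and 1197 to 1640, 1717 and 1670 (0.46 ± 0.068, adjusted p = 0.000668).

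The promoters of TNFAIP3 and NFKBIA are printed because both genes are classic feedback targets of NF-kappaB, and they rose by different amounts. Capitals mark matches to the NF-kappaB site in the 120 bases before the RefSeq start (GRCh38.p14; TNFAIP3 at chr6:137867139-137867258, plus strand; NFKBIA at chr14:35404750-35404869, minus strand). The sites begin 67 and 55 bases before the start of TNFAIP3 and 81 bases before that of NFKBIA.
TNFAIP3: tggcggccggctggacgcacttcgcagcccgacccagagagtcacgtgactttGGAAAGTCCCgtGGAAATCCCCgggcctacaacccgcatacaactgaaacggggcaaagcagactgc
NFKBIA: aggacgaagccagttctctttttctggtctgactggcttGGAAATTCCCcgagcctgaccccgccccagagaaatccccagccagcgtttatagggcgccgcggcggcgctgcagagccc
Within 250 bases before the start, 5.05% of all 27305 promoters hold such a match on either strand, as do 8 of the 15 list members with a promoter in the table. Those 8 include 4 that rose (NFKB1, NFKBIA, TNFAIP3 and CFLAR) and 4 that did not pass (REL, NFKBIZ, BIRC3 and IRF1).

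Some genes of B cell receptor signalling were higher at 24 h. Of 32 tested genes of B cell receptor signalling 13 rose, 19 did not pass and none fell (median 0.17 on the log2 scale), beside 6.56% of all entries, and 8 passed without the first replicate at 8 h. PTPN6, the phosphatase SHP-1 that damps receptor signalling through inhibitory coreceptors, moved most. It read 1252 and 1232 normalised counts at 8 h and 4584, 4647 and 4790 at 24 h, a change of 1.86 ± 0.092 (limma adjusted p = 1.65e-07). Replicates agreed within a few percent at each time, and the groups lay far apart. MS4A1, the gene of the antibody target CD20, went from 25345 and 24571 to 37107, 36504 and 35476 (0.54 ± 0.044, adjusted p = 1.97e-05). RASGRP3, which couples diacylglycerol to RAS in B cells, rose from 2214 and 1889 to 3715, 3351 and 3681 (0.79 ± 0.11, adjusted p = 0.000226). CD72, a coreceptor that recruits SHP-1, rose by 0.57 ± 0.12, and the SRC family kinases BLK and LYN by 0.57 ± 0.10 and 0.45 ± 0.079. The receptor chains were among those that did not pass: CD79A changed by -0.14 and CD79B by 0.16, and the kinases SYK (0.14) and BTK (0.04) also missed the threshold. CD22, an inhibitory coreceptor, passed (0.70 ± 0.15, limma adjusted p = 0.0353) but lost its call without any 1 of the 5 libraries (adjusted p up to 0.205 without the second replicate at 8 h).

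Other surface and secreted products with large rises belong to the same cell type. IL10, the cytokine that dampens inflammation and is made by some B cells, went from 742 and 702 normalised counts to 2591, 3030 and 2636 (1.84 ± 0.15, limma adjusted p = 1.58e-06). PTGER4, a prostaglandin E2 receptor, went from 2201 and 1794 to 7561, 6949 and 6726 (1.80 ± 0.11, adjusted p = 1.32e-06). CD180, a B cell relative of the toll-like receptors, went from 97.3 and 122 to 679, 632 and 587 (2.03 ± 0.24, adjusted p = 9.04e-05). For each of these 3 genes the 24 h libraries were more than 3 times above the 8 h libraries. Of 20 homing and adhesion genes 5 rose and none fell, beside 6.56% of all entries, among them ITGA4, the alpha4 integrin chain (5436 and 4985 to 7466, 7679 and 7746, a change of 0.55 ± 0.070), and RGS1, which limits chemokine receptor signalling (0.71 ± 0.10).

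B cell transcription factors followed in part. Of 27 tested factors 9 rose and 1 fell, with a median of 0.22, beside 6.56% and 3.56% of all entries. PAX5 (chromosome 9, 36833275 to 37034185), which keeps cells in the B lineage, doubled from 7910 and 6430 normalised counts to 13712, 14792 and 14401 (1.00 ± 0.11, limma adjusted p = 9.22e-05). SPIB, an ETS factor of mature B cells, rose from 10216 and 10097 to 18179, 15663 and 17480 (0.75 ± 0.076, adjusted p = 0.000266). BACH2, a repressor of plasma cell fate, rose from 1464 and 1363 to 2651, 2264 and 2879 (0.85 ± 0.11, adjusted p = 0.000534). No 24 h library of these 3 genes fell within the 8 h range. EBF1 rose by 0.67 ± 0.15 and IKZF1 by 0.30 ± 0.036, MEF2B, a cofactor of BCL6 expression in germinal centre cells, fell by 0.59 ± 0.092, and IRF4 (0.02), SPI1 (-0.08) and BCL6 (-0.27) did not pass.

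Genes of the antibody-secreting state gave 7 rises and no fall among 16 tested, with a median of 0.16, beside 6.56% of all entries called higher. CD38, an ectoenzyme abundant on plasma cells, rose from 8262 and 8182 normalised counts to 12259, 12310 and 12237 (0.57 ± 0.13, limma adjusted p = 0.00165), with replicates within 1% of each other at each time. JCHAIN, which links IgM and IgA, rose by 0.48 ± 0.079 and TXNDC5, an ER disulfide isomerase, by 0.38 ± 0.033. The regulator of that state, PRDM1, did not pass (-0.13), nor did SDC1 (-0.19). Antigen presentation genes have up to 8 entries each in the table, and their counts depended on how entries were treated. With 1 entry for each gene 4 of 16 MHC class II genes rose and none fell: CIITA, the coactivator that controls them, went from 6372 and 4721 to 7817, 7450 and 7906 (0.49 ± 0.095, adjusted p = 0.007), and the others were HLA-DOB, HLA-DQA1 and HLA-DPA1. Of 18 MHC class I genes 2 rose, among them ERAP2, an ER peptidase that trims peptides (0.23 ± 0.047), and 1 rose without the second or the third replicate at 24 h or the second at 8 h. With entries summed 7 class II and 6 class I genes rose. Summed, HLA-DMB, a peptide editor of class II, changed by 0.55 ± 0.12 (limma adjusted p = 0.00563), HLA-DQA1 by 0.29 ± 0.061 (0.00855), HLA-DQB1 by 0.27 ± 0.055 (0.00631) and HLA-DPA1 by 0.21 ± 0.054 (0.0285), while HLA-DRA did not pass (0.17 ± 0.054, adjusted p = 0.0571).

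Many ER folding genes rose, while many heat shock genes fell. Among 24 tested genes of the unfolded protein response and ER folding 13 rose and none fell, with a median of 0.21, beside 6.56% of all entries called higher. HSPA5 (chromosome 9, 125234853 to 125241330), the BiP chaperone of the ER, went from 24096 and 24468 normalised counts to 35692, 34913 and 34327, a change of 0.53 ± 0.031 (limma adjusted p = 2.89e-06). CREB3L2, an ER-anchored transcription factor, went from 4778 and 4417 to 6417, 6714 and 6548 (0.51 ± 0.056, adjusted p = 0.000128). XBP1, the factor spliced by IRE1 under ER stress, went from 4465 and 4699 to 6236, 5976 and 5756 (0.38 ± 0.057, adjusted p = 0.00129). For these genes no library of one time reached the range of the other. EDEM1, which hands misfolded glycoproteins to degradation, rose by 0.34 ± 0.047 and HERPUD1 by 0.48 ± 0.079, whereas HSP90B1 (0.16), CALR (0.15) and the sensor gene ERN1 (-0.56) did not pass. Fewer members passed when single libraries were left out, 6 without the first replicate at 24 h and 7 without the second at 8 h.

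Of 22 tested members of the heat shock list, mostly cytosolic chaperones with a few mitochondrial ones, 15 fell and none rose, with a median of -0.27 on the log2 scale, beside 3.56% of all entries called lower. HSPA1B, the stress-inducible HSP70, has 5 entries and a near-identical neighbour gene, so its entries were summed. The sum went from 8262 and 8541 normalised counts at 8 h to 1419, 1466 and 1701 at 24 h, a change of -2.42 ± 0.11 (limma adjusted p = 4.52e-08). The 24 h mean was 0.182 of the 8 h mean. DNAJB1, the HSP40 partner of HSP70, went from 10653 and 10976 to 6106, 5499 and 6241 (-0.86 ± 0.057, adjusted p = 5.36e-06). HSPH1, a nucleotide exchange factor for HSP70, went from 57810 and 55242 to 36364, 36438 and 35800 (-0.64 ± 0.047, adjusted p = 1.43e-05). For each of these 3 genes every 24 h library lay below both 8 h libraries.

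The fall reached abundant constitutive chaperones too. HSPA8, the constitutive HSP70, went from 223977 and 208342 normalised counts to 149292, 138389 and 142322 (-0.59 ± 0.051, limma adjusted p = 3.23e-05). HSP90AA1 changed by -0.15 ± 0.030 and the mitochondrial chaperonin HSPD1 by -0.12 ± 0.028, both past the test. DNAJB4, another HSP40, went from 801 and 830 to 429, 416 and 335 (-0.96 ± 0.11, adjusted p = 0.000451), and CHORDC1, a cochaperone of HSP90, went from 5581 and 5619 to 3551, 3473 and 3330 with its 2 entries summed (-0.69 ± 0.044). BAG3, which links HSP70 to autophagy, changed by -0.54 ± 0.076. HSF1, the factor that drives these genes, did not pass (-0.01), nor did HSPE1 (-0.03) and HSP90AB1 (-0.07). Leaving out any 1 DMSO library left 12 to 15 members called lower.

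The plot of chaperone genes by library shows both movements, and promoters of 3 such genes are printed to show the response elements that distinguish the 2 programmes. Capitals mark the heat shock element, searched on both strands as GAA, TTC and GAA with 2 free bases between units, in HSPA8 (chr11:123062137-123062256, minus strand, 1 match beginning 55 bases before the start) and CHORDC1 (chr11:90223050-90223169, minus strand, 3 overlapping matches beginning 60, 55 and 50 bases before it). In HSPA5 (chr9:125241344-125241463, minus strand) they mark the ER stress response element, searched on both strands as CCAAT and CCACG with 9 free bases between them, 66 bases before the start. All are the 120 bases before the RefSeq start in GRCh38.p14.
HSPA8: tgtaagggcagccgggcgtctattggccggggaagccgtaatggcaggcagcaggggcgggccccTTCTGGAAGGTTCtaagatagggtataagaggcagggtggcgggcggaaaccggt
CHORDC1: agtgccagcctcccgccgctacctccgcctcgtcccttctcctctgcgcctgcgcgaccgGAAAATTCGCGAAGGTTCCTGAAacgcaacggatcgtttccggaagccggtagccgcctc
HSPA5: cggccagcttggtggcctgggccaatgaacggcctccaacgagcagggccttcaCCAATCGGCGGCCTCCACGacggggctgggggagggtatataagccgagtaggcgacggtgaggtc
Within 250 bases before the start the heat shock element stood in 0.439% of all promoters and in 3 of 20 heat shock members with a promoter in the table (HSPA8, HSPA6 and CHORDC1). Those 3 fell, as did 14 of the 20 in all, most of them without the element. Among NF-kappaB list members the element stood in CD83, which rose. The ER element stood in 0.0806% of all promoters and in 6 of 22 ER members, of which HSPA5 and XBP1 rose and HSP90B1, CALR, CANX and CRELD2 did not pass. No heat shock element of these letters was found in the ER members and no ER element in the heat shock members. The letters are strict and leave out weaker variants of both elements.

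**Figure D3:**
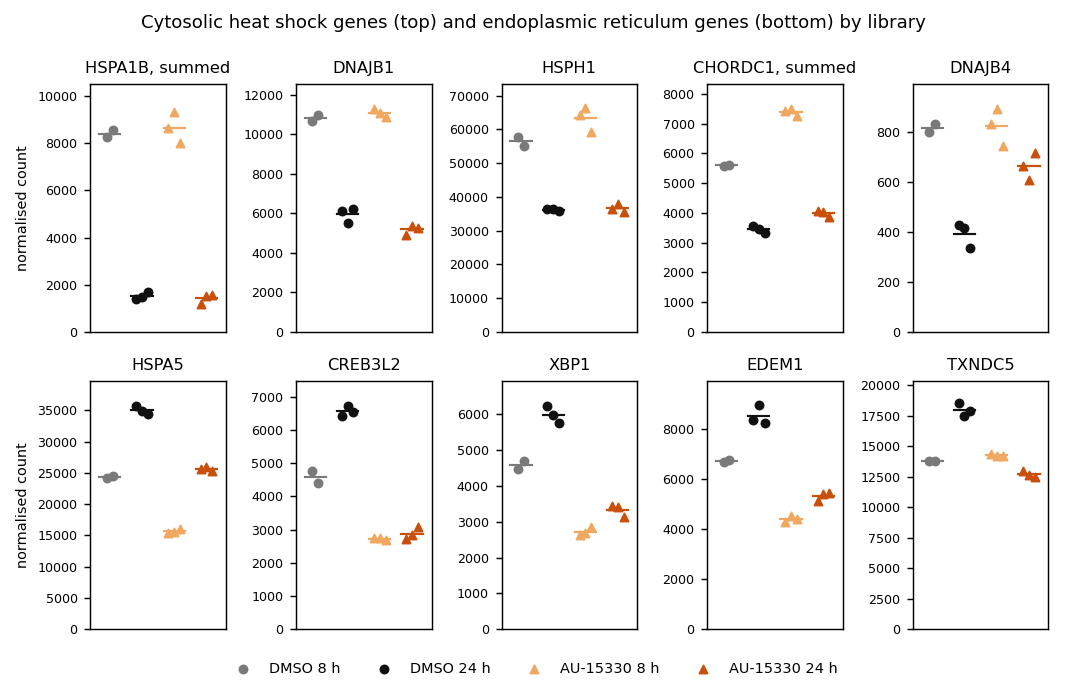
Normalised counts (linear axes from 0) of 5 cytosolic heat shock genes (top) and 5 ER genes (bottom) in every library, circles for DMSO and triangles for AU-15330, with a line at each group mean; HSPA1B and CHORDC1 are sums over their entries. In DMSO the top row is lower and the bottom row higher at 24 h, and the AU-15330 libraries of the top row are also lower at 24 h, with a smaller fall for DNAJB4 than in DMSO.

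Outside the heat shock list, the largest falls were scattered over functions. DEDD2, a death effector domain protein, went from 1861 and 1888 normalised counts to 849, 855 and 939 (-1.04 ± 0.071, limma adjusted p = 6.78e-06). NINJ1, a membrane protein that ruptures dying cells, went from 4304 and 4423 to 2684, 2689 and 2688 (-0.69 ± 0.057, adjusted p = 7e-06). TNFRSF18, the receptor GITR, went from 1019 and 1079 to 549, 557 and 582 (-0.83 ± 0.069, adjusted p = 2.79e-05). The replicates of these 3 genes lay close together at both times. That no library crossed between groups was a condition of this ranking. GPR146, an orphan receptor, changed by -0.69 ± 0.12, FGFR3, a growth factor receptor kinase, by -1.02 ± 0.16 and FABP3, a fatty acid carrier, by -0.71 ± 0.14, all past the test.

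The remaining falls of the ranking were less firm. UTP14C, an intronless copy of UTP14A whose reads may be shared with it, went from 470 and 774 normalised counts to 111, 317 and 74.1 (-1.70 ± 0.49, limma adjusted p = 0.0335, and 0.219 without the second replicate at 8 h). Its libraries spread widely within each time. ELFN2 (-1.15 ± 0.29), LRRC37A17P (-0.91 ± 0.27) and BDKRB2 (-0.69 ± 0.17) also lost their calls when single libraries were left out, with adjusted p up to 0.154 for ELFN2 and 0.0753 for BDKRB2 without the second and the first replicate at 8 h, and up to 0.244 for LRRC37A17P without the first. CDKN1C, a CDK inhibitor with 2 entries, gave a sum of 5760 and 6988 at 8 h and 4101, 3596 and 3785 at 24 h (-0.72 ± 0.080, adjusted p = 0.000238 with entries summed).

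Proliferation genes changed little. Of 46 tested DNA replication genes 13 rose and 1 fell (median 0.08), beside 6.56% and 3.56% of all entries, the rises lying between 0.10 and 0.26 on the log2 scale. CDC6, which loads the replicative helicase, went from 8834 and 9122 normalised counts to 10897, 10415 and 10521 (0.24 ± 0.040, limma adjusted p = 0.00333). PRIM1, the primase subunit, rose by 0.26 ± 0.042 and LIG1, the DNA ligase of replication, fell by 0.24 ± 0.066. This count depended on the processing: 4 members passed as higher after quantile normalisation, and 4 to 7 when any 1 DMSO library was left out (4 without the first at 8 h, 6 without the second, and 5, 7 and 5 without the first, the second and the third at 24 h). Of 40 mitosis genes 4 fell and 1 rose (median -0.05), together close to the 10.1% of all entries. CDC20, the activator of the anaphase-promoting complex, went from 13661 and 13058 to 11173, 11234 and 10276 (-0.29 ± 0.044, adjusted p = 0.00181). The count of mitosis falls dropped to 1 without the second or the third replicate at 24 h or the first at 8 h, and to 2 without the first at 24 h. MKI67, the usual proliferation marker, read 25322 and 24206 at 8 h and 20520, 26077 and 22832 at 24 h and did not pass (-0.10 ± 0.095, adjusted p = 0.553). MYC rose slightly, from 50092 and 50179 to 55191, 55640 and 55370 (0.14 ± 0.026, adjusted p = 0.00614), a call that was lost after quantile normalisation. In a list of 40 made of MYC and genes linked to it, mostly of ribosome biogenesis, MYC itself and ODC1, an enzyme of polyamine synthesis, rose, and the ribosome biogenesis genes RRP9 and UTP20 fell. After quantile normalisation 1 rose and 8 fell. RRP9 and UTP20 each lost the call whichever DMSO library was left out. Without the first replicate at 24 h, 1 other member passed as lower.

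Metabolic, stress and clock lists held few calls, to be read beside the 6.56% of all entries that rose and the 3.56% that fell. SLC2A3, the high-affinity glucose transporter, was the large mover, from 86.4 and 75.8 normalised counts to 307, 371 and 279 (1.42 ± 0.15, limma adjusted p = 0.000338), with no overlap. Other glycolysis genes moved little: 5 of 25 rose and 1, ENO1, fell. TXNIP, a brake on glucose uptake, rose from 2188 and 2245 to 2699, 3082 and 2855 (0.37 ± 0.058, adjusted p = 0.00303). In the hypoxia list 1 of 19 rose, in the ATF4 list 3 of 29 rose and 1 fell, in cholesterol synthesis 4 of 24 rose with INSIG1 first (0.43 ± 0.060), and in fatty acid synthesis 2 of 13 rose. These counts leaned on single libraries. The ATF4 rises fell to 1 without the second replicate at 8 h, and the cholesterol rises to 2 without the first or the second at 24 h or the first at 8 h. The fatty acid rises fell to 1 without any 1 library other than the third at 24 h, and numbered 3 without that library. ACACA, 1 of the 2 fatty acid rises, lost its call in each of these fits. The hypoxia rise, BNIP3L, lost its call whichever DMSO library was left out, and another member passed without the first at 24 h. Glycolysis gave 3 rises and 3 falls without the second at 8 h. Of 27 p53 targets 6 rose and 1, POLH, fell, led by PLK3 (0.60 ± 0.14), FDXR (0.51 ± 0.073) and DDB2 (0.45 ± 0.074), and 3 rose without either replicate at 8 h. Of 24 genes of the NRF2 oxidative response 4 fell and none rose: HMOX1, GPX4, FTH1 and SOD2. GPX4, which repairs lipid peroxides, went from 5249 and 5241 to 4002, 3956 and 4234 (-0.36 ± 0.062, adjusted p = 0.00544), and 1 or 2 of the 4 passed when any 1 library was left out. Of 14 clock genes 3 rose (BHLHE40, PER1 and NFIL3), and BHLHE40 did so by 0.55 ± 0.066. PER1 lost its call with a replicate block and without the first or the second replicate at 24 h. Among the p53 targets, PLK3 lost its call without the first replicate at 24 h.

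Several further lists held few calls or none, to be read beside the 6.56% of all entries that rose and the 3.56% that fell. A share near these is no result about a list. Of 39 nuclear genes of the respiratory chain 2 rose, of 54 ribosomal protein genes 4 rose by 0.13 to 0.15 on the log2 scale (respiratory chain 0 without the first replicate at 8 h and 1 without any other DMSO library, ribosomal proteins 0, 1 and 2 without the first, the second and the third replicate at 24 h and 2 without the second at 8 h, and after quantile normalisation 1 rise in each, with 2 respiratory chain falls), and of 16 testable replication histones and 6 metallothionein genes 0 passed in limma (0 and 2 at an unadjusted p under 0.05). All 12 mitochondrially encoded genes had a higher mean at 24 h (0.06 to 0.40, median 0.30), and the groups did not overlap for 10 of them, beside 23% of all entries higher without overlap. In the fit to all libraries 0 passed (5 at an unadjusted p under 0.05), but 7 rose in a fit to the DMSO libraries alone and 1 with a replicate block. Their sum was 550884 to 635072 normalised counts at 8 h and 686329 to 742753 at 24 h. Lysosome genes gave 1 fall among 26, CTSD (-0.44 ± 0.077), and 0 without the second replicate at 8 h or 2 without the third at 24 h. Among the genes on which the study centres, SMARCA4 read 37775 and 38082 at 8 h and 33720, 36350 and 37453 at 24 h, and its change of -0.08 ± 0.053 did not pass (adjusted p = 0.373). Nor did SMARCA2 (-0.06 ± 0.079), PBRM1 (-0.02 ± 0.057), CCND1 (0.10 ± 0.031) and SOX11 (-0.10 ± 0.087), the neural factor typical of mantle cell lymphoma.

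**Figure D4:**
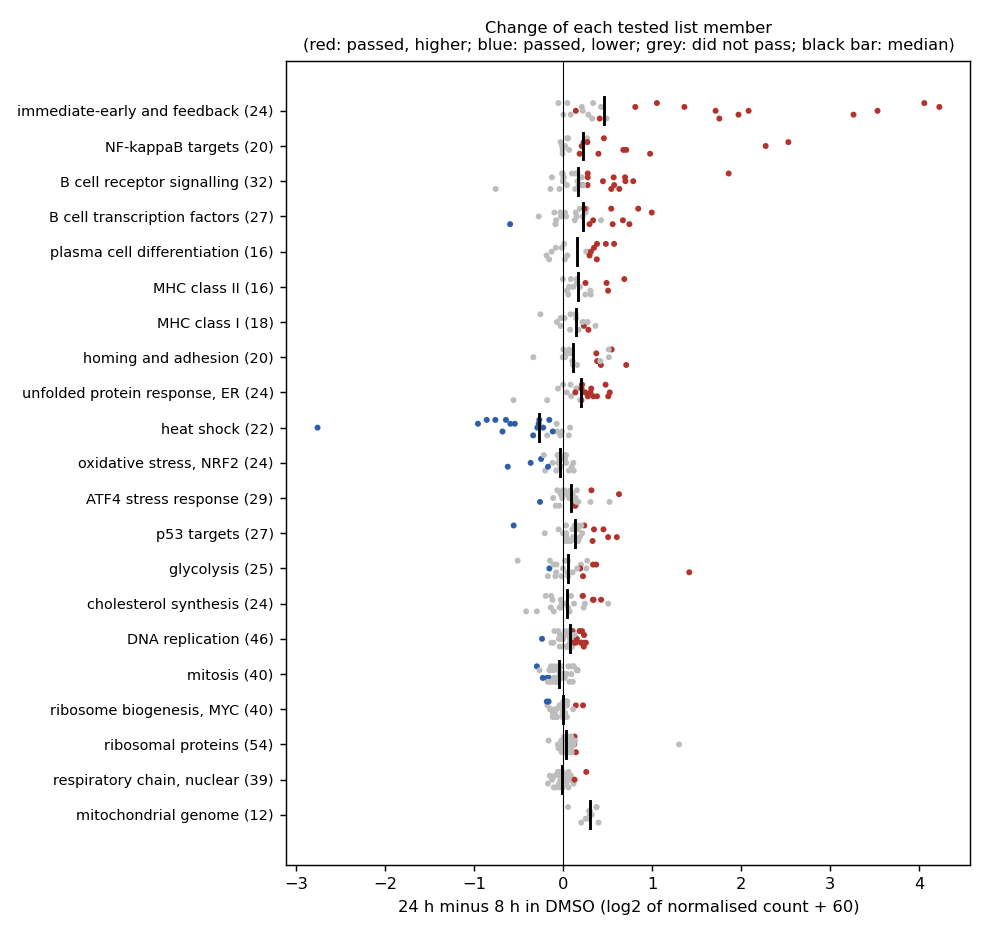
Change from 8 h to 24 h in DMSO (log2 of normalised count + 60) of every tested member of 21 gene lists, each point 1 gene, red for those that rose, blue for those that fell and grey for those that did not pass, with a black bar at the list median and the number tested in brackets. The heat shock row lies to the left of 0 (median -0.27) and the immediate-early row to the right (median 0.46), while the ribosomal protein and respiratory chain rows sit around 0.

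The AU-15330 libraries offer a second reading of the same pair of times, from libraries that DMSO does not share but under the same 2 batch labels. In AU-15330, 5008 entries differed between 24 h and 8 h (39.4%), 2322 higher (18.3%) and 2686 lower (21.1%). Of the 834 genes that rose in DMSO, 417 (50.0%) also rose in AU-15330, 102 (12.2%) fell and 315 did not pass. Of the 453 that fell in DMSO, 259 (57.2%) also fell in AU-15330, 35 (7.7%) rose and 159 did not pass. Of the 22 heat shock members 15 fell in DMSO, and 18 fell and 1 rose in AU-15330. The test of the difference between the 2 changes passed for 8 of the 22, beside 18.5% of all entries. DNAJB4 changed by -0.29 ± 0.10 in AU-15330 and by -0.96 ± 0.11 in DMSO (difference 0.67 ± 0.15, limma adjusted p = 0.014). The HSPA1B sum went from 8658, 9325 and 8019 normalised counts in AU-15330 at 8 h to 1191, 1518 and 1571 at 24 h, a change of -2.56 ± 0.099 beside -2.42 ± 0.11 in DMSO. The difference between these changes, -0.14 ± 0.15, did not pass (limma adjusted p = 0.535). DEDD2 and HSPH1 also fell in AU-15330, with differences of 0.02 ± 0.096 (adjusted p = 0.977) and -0.15 ± 0.063 (0.131) that did not pass.

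The test of the difference between the AU-15330 change and the DMSO change passed for 2359 entries (18.5% of all tested), for 388 of the 834 rises (46.5%) and for 151 of the 453 falls (33.3%). The difference contains the DMSO change by which these genes were called, from the same libraries. Higher shares among the called genes are therefore partly built in. EGR1 read 1779, 1854 and 1230 normalised counts in AU-15330 at 8 h and 3287, 2963 and 1916 at 24 h, so its change there was 0.71 ± 0.26 and the difference -3.35 ± 0.39 (limma adjusted p = 0.00108). Its AU-15330 libraries began above DMSO at 8 h and ended below it at 24 h. PTPN6 read 820, 882 and 996 in AU-15330 at 8 h and 645, 700 and 797 at 24 h, a fall of -0.31 ± 0.082 beside the DMSO rise of 1.86 ± 0.092, with a difference of -2.17 ± 0.12 (adjusted p = 7e-07). MS4A1 likewise rose in DMSO and fell in AU-15330 (-0.34 ± 0.040, difference -0.89 ± 0.060). MYO1G, a motor protein of the lymphocyte membrane, rose by 0.54 ± 0.18 in DMSO and changed by -1.71 ± 0.16 in AU-15330, though its DMSO rise was lost without the first replicate at 8 h (adjusted p = 0.127).

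Differences in the other direction were led by NR4A3, which went from 15.1, 19.9 and 24.0 normalised counts to 1102, 972 and 709 in AU-15330, a change of 3.61 ± 0.17 and a difference of 2.56 ± 0.26 (limma adjusted p = 0.000137). HMOX1, the haem oxygenase of the oxidative response, read 324 and 309 in DMSO at 8 h and 191, 208 and 157 at 24 h, but 328, 330 and 422 and then 1553, 1388 and 1335 in AU-15330. It fell in one arm (-0.62 ± 0.12) and rose in the other (1.83 ± 0.11), a difference of 2.45 ± 0.17 (adjusted p = 6.25e-06). The DMSO fall alone lost its call without the first replicate at 24 h (adjusted p = 0.0587), the third at 24 h (0.0807), the first at 8 h (0.129) and the second at 8 h (0.0975). Among the remaining lists, MHC class II gave 4 rises in DMSO and 9 falls in AU-15330 of 16 members, with 9 differences past the test. B cell receptor signalling gave 13 rises in DMSO and 14 falls in AU-15330 of 32, with 16 such differences. Over all entries 6.56% rose in DMSO, 21.1% fell in AU-15330 and 18.5% passed for the difference. Such splits were not particular to these lists. The MYC and ribosome biogenesis list gave 2 rises and 2 falls in DMSO and 2 rises and 31 falls in AU-15330 of 40, with 25 differences. Lysosome genes gave 1 fall in DMSO and 14 rises and 2 falls in AU-15330 of 26, with 14 differences.

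**Figure D5:**
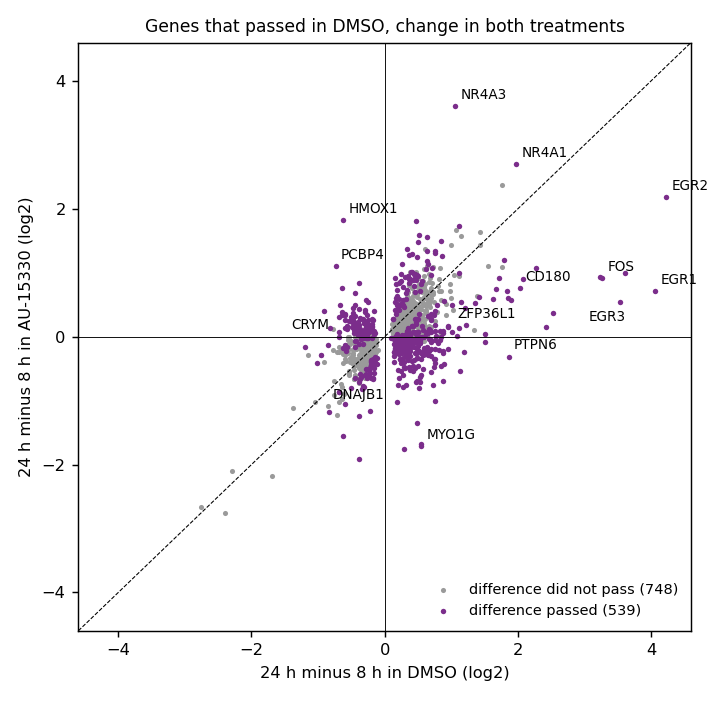
Change from 8 h to 24 h in AU-15330 (vertical axis, log2) against that in DMSO (horizontal axis, log2) for the 1287 entries called in DMSO; purple marks the 539 whose difference between arms passed, grey the 748 whose difference did not, and the dashed line marks equal changes. EGR1, EGR3, FOS and PTPN6 lie far below the dashed line, NR4A3 and HMOX1 above it, and the entries farthest to the lower left, which include HSPA1B, lie near it.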

How the data were processed

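RNA of Z138 cells was sequenced in 12 labelled samples, and the DMSO libraries at 8 h and 24 h are compared here. The submitters' processing notes name DESeq2 1.24.0 in R 4.3.2, kallisto 0.46.1, the build GRCh38.p13, Trimmomatic 0.40 and FastQC 0.11.9. Per the labels, reads were 50 bp long, and kits for polyadenylated RNA and for ribosomal depletion are both listed. The kit behind each library is not stated. The authors deposited log2 values for 20318 gene entries in 12 columns, 2 of them identical. Every library shares the lowest value, 10.36, and the values fit a variance-stabilising transform, which was inverted to normalised counts. Only 53.8% to 56.4% of values up to 20 counts then came out whole (within 0.02), so no count model was fitted.

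Using limma 3.58.1 (R 4.3.3), group means were estimated over all 11 libraries, with a mean-dependent prior, 7 residual degrees of freedom and Benjamini-Hochberg adjustment over 12722 entries that reached 1 CPM in 3 or more libraries (62.6% of entries). Tests used the values as deposited. Folds and standard errors come from log2(normalised count + 60), about 1 CPM, or from sums over a symbol's entries where stated. On simulated data the fit recovered 34%, 66%, 88% and 90% of changes of 1.25, 1.5, 2 and 4-fold for DMSO at 24 h against 8 h over 12722 genes. Only 50 genes were changed per size there, and 145 were called, against 1287 in the data. The adjustment therefore worked at another cutoff, and these rates do not give the recovery in the data. Of the entries, 91.41% matched GENCODE release 29, whose GRCh38 coordinates are given, and promoters are RefSeq's in GRCh38.p14.

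Named genes are the 12 largest rises and the 12 largest falls by fold among called genes that averaged 5 CPM or more at the higher time, had 1 entry and showed no overlap between times, the 4 members of each list with the smallest p, the 5 largest differences from AU-15330 in each direction, and CCND1, SOX11, MYC, MKI67, SMARCA4, SMARCA2 and PBRM1. Other list members are named as examples chosen after their values were seen. The comparison, the 41 lists and the motifs were chosen with earlier results of these data known. Alternatives were other scalings, offsets, filters and priors, a minimum fold, DMSO libraries alone, a replicate block, each DMSO library left out and, chosen after seeing the data, summed entries and a block that counts the doubled column as replicate 3. Results for some genes are not reported here.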

Additional observations from a re-analysis of the deposited data

Results flagged for a closer look

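The change from 8 h to 24 h differed between AU-15330 and DMSO, by the test of the difference itself, for 73 of the named genes reported here that had passed in DMSO (limma, Benjamini-Hochberg adjusted p under 0.05 over all tested entries). Over all tested entries the difference passed for 18.5%. Named genes were picked partly for large DMSO changes or large differences, and the difference contains the DMSO change. That choice raises the count, so it is no result about these genes as a set. Each value is the AU-15330 change minus the DMSO change on the log2 scale, and time and labelled batch are the same split in both arms. For CCL3, CCL4, CHORDC1 and the HLA genes it belongs to 1 of several entries of the symbol.

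It was below 0 for 47 genes. Among immediate-early genes, their feedback regulators and MYC these were EGR1 (-3.35), EGR3 (-3.00), FOS (-2.34), EGR2 (-2.05), ZFP36L1 (-1.31), SPRY2 (-1.18), IER2 (-0.83) and MYC (-0.54). Among secreted factors and the prostaglandin receptor they were CCL3L1 (-2.27), CCL3 (-2.17), CCL4 (-1.20), IL10 (-1.12) and PTGER4 (-0.59). Among B cell surface, presentation, adhesion and transcription factor genes they were MYO1G (-2.26), PTPN6 (-2.17), CD180 (-1.27), CD22 (-0.89), MS4A1 (-0.89), ICAM3 (-0.88), CD38 (-0.85), CIITA (-0.82), HLA-DOB (-0.72), CD48 (-0.68), ERAP2 (-0.58), FOXO1 (-0.57), TXNDC5 (-0.55), HLA-DPA1 (-0.51), CD72 (-0.47), HLA-DQA1 (-0.43), SPIB (-0.41) and RASGRP3 (-0.29). The others were SLC2A3 (-0.80), CHAC1 (-0.79), HK2 (-0.71), CREB3L2 (-0.43), RB1 (-0.38), SHMT2 (-0.37), INSIG1 (-0.35), TNFRSF18 (-0.34), RRP9 (-0.33), CYP51A1 (-0.27), SDHA (-0.27), PFKP (-0.25), PRIM1 (-0.24), UTP20 (-0.22), CHORDC1 (-0.19) and UQCRFS1 (-0.16).

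It was above 0 for 26 genes. The large ones were BDKRB2 (1.00), ABCA1 (1.03), CRYM (1.31), VGF (1.35), PCBP4 (1.84), HMOX1 (2.45) and NR4A3 (2.56). Values between 0.5 and 1 belonged to CCNG2 (0.51), FTH1 (0.52), FGFR3 (0.61), GPX4 (0.64), CTSD (0.64), DNAJB4 (0.67), NR4A1 (0.73), CDKN1A (0.75) and NINJ1 (0.76). Smaller ones belonged to RPL12 (0.16), IKZF1 (0.16), HSPA5 (0.18), MCL1 (0.20), SCD (0.23), TUG1 (0.26), KIF20A (0.36), TNFRSF13B (0.37), RGS1 (0.37) and PMAIP1 (0.40). Among these, HMOX1, PCBP4, CRYM, GPX4, FTH1 and CTSD fell in DMSO and rose in AU-15330. The DMSO falls of PCBP4, CRYM and FTH1 lost their calls whichever DMSO library was left out, while GPX4 kept its call in each of those fits. CRYM was low in DMSO, at 104 and 106 normalised counts at 8 h and 29.2, 23.6 and 30.8 at 24 h.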

How the results depend on the processing

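Most changes kept their direction, and the number of calls is the soft part. The DMSO comparison gave 834 higher and 453 lower. A test against a minimum change of 1.2-fold left 39 and 8, and 103 entries for the difference between arms. In that test 4 heat shock genes were lower and 8 immediate-early, 3 NF-kappaB, 2 B cell receptor, 1 ER and 0 DNA replication genes higher. A fit to the DMSO libraries alone gave 668 higher and 315 lower, and shared 71.1% and 61.6% of the main calls. In that fit 6 ER and 6 DNA replication genes passed as higher. Without a filter 7 DNA replication genes passed as higher, and after quantile normalisation 4. Leaving out any 1 DMSO library gave 462 to 617 genes higher, 197 to 283 lower, 1571 to 1938 entries for the difference, and 12 to 15 heat shock, 11 to 13 immediate-early, 7 to 10 NF-kappaB, 8 to 11 B cell receptor, 6 to 10 ER and 4 to 7 DNA replication members. Of 125 named genes past the threshold, 68 kept their call in every setting other than the minimum fold, and none changed sign in any setting. Among named genes that did not pass, the sign turned for CCND1 after quantile normalisation (-0.0038), PBRM1 without the first DMSO replicate at 24 h (0.0053) or at 8 h (0.0246), and SOX11 and MT1E without the second at 8 h (0.0442 and 0.0009), all on the deposited scale. With single libraries left out these ranged from -0.0567 to 0.0246 for PBRM1, -0.1857 to 0.0442 for SOX11 and -0.1552 to 0.0009 for MT1E. Why these values moved was not tested, other than that fewer libraries leave a wider error.

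Replicate numbers were not taken to pair the samples: the deviations of same-numbered DMSO libraries correlated at 0.007 and -0.022, and those of same-numbered libraries in all groups at -0.043 to 0.134, positive for every such pair that leaves out DMSO at 8 h (0.030 to 0.134). A replicate block gave 718 higher and 364 lower, sharing 664 and 315 with the fit without it, and 747 and 398 with the doubled column as replicate 3. The number of libraries, 2 at 8 h, limits the precision.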
